A study of Homo sapiens with 6 samples.

Results

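OGT and OGA were examined as the writer and eraser of O-GlcNAc in long-read C-to-U editing data. All deposited edits were taken whose isoform belongs to either gene in GENCODE release 44. The genes held 4 of the 9892 listed isoforms and 787 of the 839700 pairs of isoform and edited position, 533 in OGT and 254 in OGA. The 6 libraries came from methanol-fixed human HEK293T cells, an established embryonic kidney line that the cell line field of the labels spells HEK293XT. In the 2 RBFOX2-INSCRIBE libraries, a rabbit antibody against endogenous RBFOX2 was bound first, and APO1-Nb, purified APOBEC1 fused to a nanobody against rabbit IgG, was then recruited to it and edited nearby RNA overnight. The 2 enzyme-only libraries received APO1-Nb without the antibody, and the 2 buffer-only libraries received neither, while fixation, incubation and rRNA depletion were common to all. Each library was 1 PacBio SMRT Cell of full-length RNA. Enzyme-only libraries are named replicate 2 and replicate 3, as in their titles, and the replicates are separate samples of 1 cell line, so that p-values measure only the spread between these samples. Expression was not analysed here, and the cell line was not checked against marker genes.

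O-GlcNAc is a single sugar placed on serine and threonine residues of nuclear and cytoplasmic proteins. OGT transfers it from UDP-GlcNAc, the end product of the hexosamine pathway, and OGA hydrolyses it. The levels of both enzymes are known to be adjusted to each other partly through splicing of their own transcripts. RBFOX2 is a splicing regulator that binds UGCAUG, and the shorter GCAUG with lower affinity.

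A single OGT isoform was listed, of 21 annotated. OGT-202 (ENST00000373719, gene ENSG00000147162, hg38 chrX:71533104-71575892, plus strand) encodes the full-length enzyme of 1046 codons in 22 exons. Its 5435 nt hold 1107 Cs. Of 11 annotated OGA isoforms, 3 were listed (gene ENSG00000198408, minus strand of chromosome 10). OGA-202 (ENST00000361464, chr10:101784450-101818444) has 16 exons, 5174 nt and 971 Cs and encodes the long enzyme of 916 codons. OGA-205 (ENST00000439817) has 15 exons, 5043 nt and 952 Cs, and encodes 863 codons. OGA-203 (ENST00000370094, chr10:101797046-101818418) ends early: it has 10 exons, 3314 nt and 677 Cs, encodes 677 codons and has a 3' UTR of its own. This is the short OGA form, which lacks the C-terminal region of the long enzyme.

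The RBFOX2 motifs of the isoforms are shown because the antibody was directed at RBFOX2. Capitals mark the motif, and the letters are those of the GENCODE transcripts. By these letters, the strand of the edit had a C at 100% of the edited exonic positions of every library. UGCAUG occurred at 2 places in OGT-202, at 1 place shared by OGA-202 and OGA-205, and nowhere in OGA-203, whose 3' UTR holds GCAUG at 2 places.
OGT-202 coding sequence, chrX:71536258-71536287: gcugagagacacUGCAUGcagcucuggaga
OGT-202 3' UTR, chrX:71573938-71573967: agacuugcuuccUGCAUGguagggagagac
OGA-202 and OGA-205 3' UTR, chr10:101785328-101785357: gucuuuaauucuUGCAUGuuuguaucuaau
OGA-203 3' UTR, first GCAUG, chr10:101797502-101797531: ccagcccugugcGCAUGcgagcuuuagugu
OGA-203 3' UTR, second GCAUG, chr10:101797293-101797322: uaaaaagcaccaGCAUGgccaaguuucucu
The presence of UGCAUG was common: 55.7% of 9808 listed isoforms held it, and 73.8% of those within 10% of the length of OGT-202, 73.2% of those near OGA-202 in length and 54.3% of those near OGA-203.

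Edited Cs were counted on the strand of the isoform and within its exons, each position once. OGT had 120 and 151 edited Cs in RBFOX2-INSCRIBE replicates 1 and 2, 51 and 102 in enzyme-only replicates 2 and 3, and 56 and 53 in buffer-only replicates 1 and 2. Both RBFOX2-INSCRIBE libraries were above all controls, while enzyme-only replicate 2 fell below both buffer-only libraries. How many genes had both antibody libraries above all controls was not counted. Of the tested genes, 85.7% were higher with the antibody than with enzyme alone, and 95.0% were higher than with buffer. EditsC, the share of an isoform's Cs that were edited, was 12.2% ± 1.98 (SD, n = 2) with the antibody, 6.91% ± 3.26 (SD, n = 2) with enzyme alone and 4.92% ± 0.192 (SD, n = 2) with buffer.

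OGA, over its 3 isoforms, had 70 edited Cs in each RBFOX2-INSCRIBE library, 17 and 45 with enzyme alone, and 29 and 19 with buffer. The order of the groups was that of OGT. EditsC over the 1155 Cs of the gene was 6.06% in both RBFOX2-INSCRIBE libraries, 2.68% ± 1.71 (SD, n = 2) in enzyme-only and 2.08% ± 0.612 (SD, n = 2) in buffer-only. In both genes, the enzyme-only and buffer-only libraries overlapped.

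**Figure D1:**
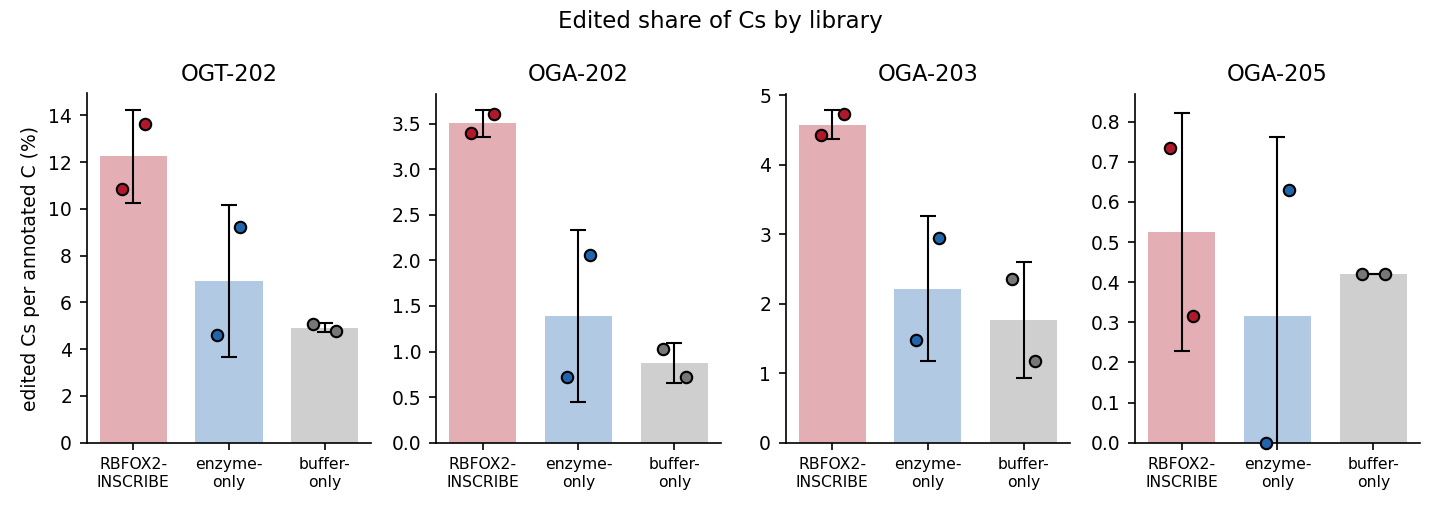
EditsC, the percentage of annotated Cs edited (vertical axis, scaled separately in each panel from 0), of the 4 listed isoforms in the 3 groups. Points are libraries, bars are means and error bars are the SD over 2 libraries. RBFOX2-INSCRIBE lies above every control library for OGT-202, OGA-202 and OGA-203 and overlaps them for OGA-205. How many other isoforms show this was not counted.

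Library size moved with these counts. The libraries held 203684 and 209103 usable edits over all isoforms with the antibody, 86425 and 155218 with enzyme alone, and 73108 and 71791 with buffer. Enzyme-only replicate 2 was thus closer to the buffer-only libraries than to enzyme-only replicate 3. The part of library size in the differences between groups was not tested. The files give fractions without read numbers, and no depth was inferred from them, so that no counting interval is given. A fraction cannot be smaller than 1 read over the depth, and the lowest fraction listed for OGT was 0.0988% and 0.0828% with the antibody, 0.154% and 0.0961% with enzyme alone, and 0.0864% and 0.0933% with buffer, highest in enzyme-only replicate 2.

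Against buffer-only, both genes rose with the antibody. OGT was 2.46-fold higher (log2 difference 1.30, SE 0.21, limma adjusted p = 0.00233), and OGA was 2.94-fold higher (log2 difference 1.56, SE 0.32, limma adjusted p = 0.00567). Most genes did the same: 2936 of 4804 genes were called, 61.1%, 2933 of them higher with the antibody, with a median log2 difference of 1.54. OGT lay at percentile 40.2 of all tested genes and OGA at percentile 50.7, so that neither stood apart. With every library scaled to the same total, which moved the median of all genes to 0.10, the log2 differences became -0.19 for OGT (limma adjusted p = 0.591) and 0.08 for OGA (limma adjusted p = 0.892). Under that scaling 15 genes were called, 4 higher and 11 lower. Without RBFOX2-INSCRIBE replicate 1, limma called no gene, with 1746 at an unadjusted p under 0.05, while OGT was at 1.46 (limma adjusted p = 0.0686) and OGA at 1.56 (limma adjusted p = 0.182). Without RBFOX2-INSCRIBE replicate 2, limma again called no gene, with 1719 at an unadjusted p under 0.05, while OGT was at 1.132 (limma adjusted p = 0.0784) and OGA at 1.56 (limma adjusted p = 0.185). In both fits the antibody arm was 1 library and the spread came from the buffer-only libraries.

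Against enzyme-only, neither gene passed the test, and neither had an unadjusted p under 0.05. The log2 difference was 0.90 for OGT (SE 0.62, limma adjusted p = 0.393) and 1.32 for OGA (SE 0.68, limma adjusted p = 0.297). In this comparison 6 of 5088 genes were called by limma, 0.118%, and 862 had an unadjusted p under 0.05. The median over all genes was 0.85, and OGT lay at percentile 52.9 and OGA at percentile 75.7. With every library scaled to the same total, the median of all genes was 0.05 and limma called 0 of 5088 genes. The log2 differences were then 0.08 for OGT (limma adjusted p = 0.934) and 0.51 for OGA (limma adjusted p = 0.688). The unscaled result turned on which enzyme-only library was kept. Leaving out 1 library leaves an arm of 1, which is assumed to vary like the other group. Without enzyme-only replicate 3, both genes were called, OGT at 1.39 (limma adjusted p = 0.0322) and OGA at 2.01 (limma adjusted p = 0.0275), together with 1690 of 5115 genes. Without enzyme-only replicate 2 the log2 differences were 0.40 for OGT and 0.63 for OGA and neither was called.

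By the number of edited Cs, enzyme-only and buffer-only were not told apart in either gene. The log2 difference was 0.40 for OGT (SE 0.60, limma adjusted p = 0.762) and 0.23 for OGA (SE 0.69, limma adjusted p = 0.885), below the median of 0.69 over the 4209 genes tested, of which 23 were called, 0.546%. Without enzyme-only replicate 3 the differences turned to -0.09 for OGT and -0.45 for OGA, and without buffer-only replicate 2 that of OGA turned to -0.06.

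**Figure D2:**
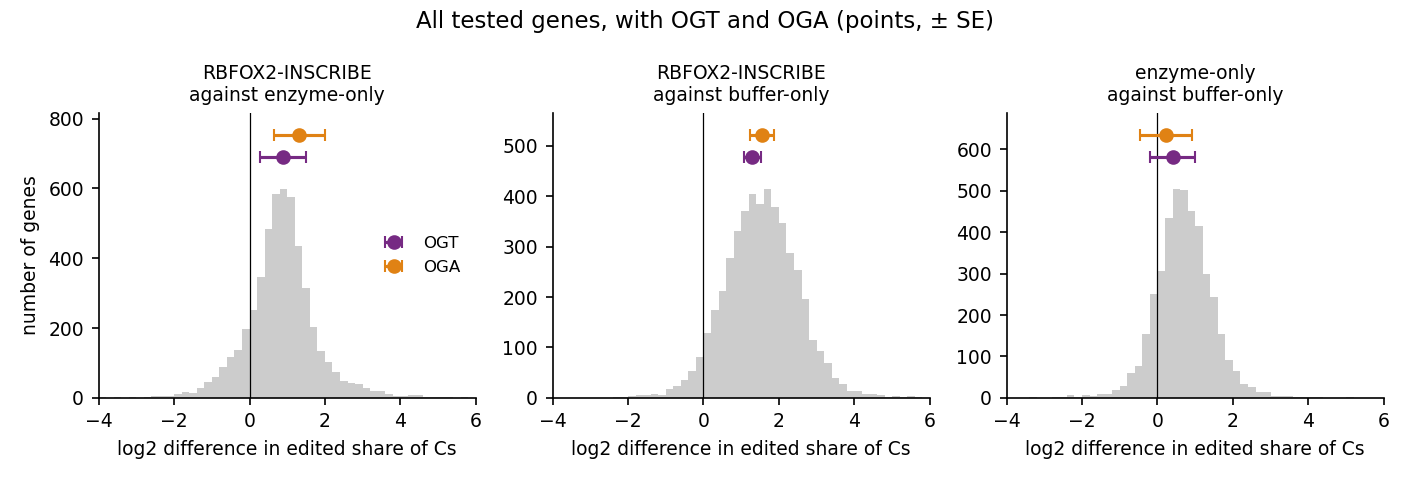
Number of genes (vertical axis) by log2 difference in editsC (horizontal axis) in the 3 comparisons, as grey histograms. Points with bars give OGT and OGA with their SE, drawn above the histogram at an arbitrary height. OGT and OGA lie inside the bulk of all genes in each comparison.

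The long and short forms of OGA both had their highest counts with the antibody. OGA-202 had 33 and 35 edited Cs with the antibody, 7 and 20 with enzyme alone and 10 and 7 with buffer. OGA-203 had 30 and 32 with the antibody, 10 and 20 with enzyme alone and 16 and 8 with buffer. For both forms the RBFOX2-INSCRIBE libraries were above all others. How many isoforms showed this was not counted. Of the tested isoforms, 85.7% were higher with the antibody than with enzyme alone, and 95.0% were higher than with buffer. EditsC with the antibody was 3.50% ± 0.146 (SD, n = 2) in OGA-202 and 4.58% ± 0.209 (SD, n = 2) in OGA-203, without overlap. The lowest listed fractions differed too, at 0.855% and 0.752% in OGA-202 and 0.621% and 0.549% in OGA-203. On the Cs that both forms share the order was the reverse, with 11 and 14 edited Cs in OGA-202 and 7 and 8 in OGA-203. The part of depth was not tested. OGA-205 was sparsely edited, with 7 and 3 edited Cs with the antibody, 0 and 6 with enzyme alone and 4 in each buffer-only library. It overlapped between all groups and was too low to test.

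Against buffer-only, 3 of the 3 tested isoforms were called by limma, where 60.1% of all 5362 isoforms were. OGA-202 was 3.89-fold higher (log2 difference 1.96, SE 0.42, limma adjusted p = 0.00616), OGA-203 was 2.66-fold higher (log2 difference 1.41, SE 0.41, limma adjusted p = 0.0207) and OGT-202 was as the gene. With the same total per library limma called none of the 3, where 23 of 5362 isoforms, 0.429%, were called. The differences were then 0.50 for OGA-202, -0.06 for OGA-203 and -0.20 for OGT-202. Without RBFOX2-INSCRIBE replicate 1 they were 2.00, 1.46 and 1.46 in that order, and without replicate 2 they were 1.92, 1.36 and 1.132. Both of these fits leave 1 antibody library, so that only the differences are given. OGA-203 also lost its call without buffer-only replicate 2 (limma adjusted p = 0.0931) and in a joint fit of the 3 groups (limma adjusted p = 0.0622). Against enzyme-only limma called none of the 3, where 3 of 5717 isoforms, 0.0525%, were, and all 3 had positive differences: 1.48 for OGA-202, 1.10 for OGA-203 and 0.90 for OGT-202. OGA-202 had an unadjusted limma p of 0.0498, and 928 of 5717 isoforms had one under 0.05. With the same total per library the differences were 0.67, 0.29 and 0.07 in that order, and limma called 0 isoforms. Without enzyme-only replicate 3, with the spread taken from the antibody libraries alone, they were 2.20, 1.58 and 1.39. Without enzyme-only replicate 2 they were 0.75, 0.62 and 0.40. Between enzyme-only and buffer-only limma called none of the 3, where 0.834% of 4438 isoforms were called, and none had an unadjusted p under 0.05. The gain over enzyme-only was 0.37 larger on the log2 scale in OGA-202 than in OGA-203 (SE 0.58, limma adjusted p = 0.888). That test was run on 582 genes with a pair of edited isoforms; limma called none of them, 0%, and 28 had an unadjusted p under 0.05.

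In OGT, edits lay in the 3' part of the transcript in every library. None fell in the first 1000 nt, although these hold 233 Cs, and the 5' UTR had 0 in all 6 libraries. The 3' UTR, counted with the stop codon, holds 32.7% of the Cs. It held 77.5% and 80.1% of the edited Cs with the antibody, 78.4% and 82.4% with enzyme alone and 66.1% and 71.7% with buffer. In the RBFOX2-INSCRIBE libraries 25.7% and 33.4% of the 3' UTR Cs were edited, against 11.05% and 23.2% in enzyme-only and 10.2% and 10.5% in buffer-only. EditsC in the 3' UTR was 6.55 and 7.67 times that in the coding sequence with the antibody, 6.91 and 8.87 times with enzyme alone, and 3.70 and 4.81 times with buffer. Over all 8753 listed protein-coding isoforms that ratio was 1.68 and 1.76, 1.134 and 1.34, and 0.903 and 0.892 in the same order. The 3' UTR of OGT thus carried more of the edits than that of all isoforms together in every library, those without APO1-Nb included. Fractions moved with position: the lowest listed fraction fell along OGT-202 in RBFOX2-INSCRIBE replicate 1 from 1.205% between nt 1001 and 2000 to 0.287% in the next 1000 nt, 0.108% in the next and 0.0988% beyond nt 4000, and it fell towards the 3' end in the other 5 libraries too. Fractions that low can be listed only where many reads lie. The part of coverage in the 3' UTR excess was not tested.

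**Figure D3:**
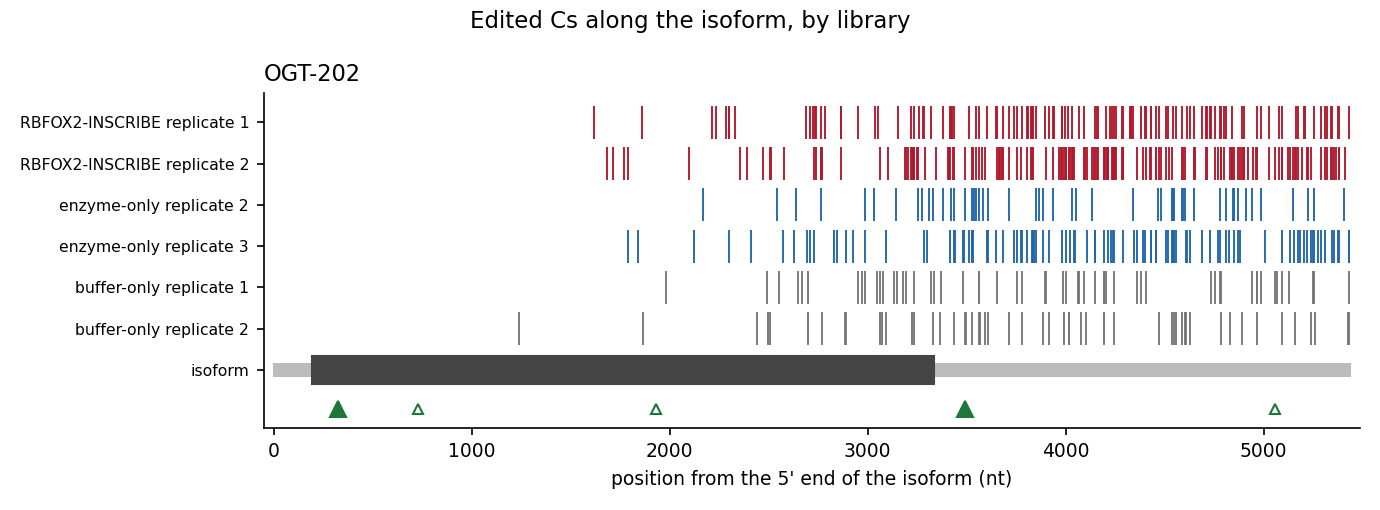
Position of every edited C of OGT-202 from the 5' end in nt (horizontal axis), 1 row of lines per library. The bar below shows the coding sequence (dark) between the UTRs (light), filled triangles mark UGCAUG and open triangles other GCAUG. Lines are absent from the first 1000 nt and dense in the 3' UTR in all 6 libraries.

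The OGA forms differed in this respect. In OGA-203, the 3' UTR holds 24.4% of the Cs and held 73.3% and 71.9% of the edited Cs with the antibody and 70.0% and 85.0% with enzyme alone, but 25% and 12.5% with buffer. As counts, 22 and 23 edited Cs lay there with the antibody, 7 and 17 with enzyme alone, and 4 and 1 with buffer. Its coding sequence ran otherwise, with 7 and 9 edited Cs with the antibody, 2 and 3 with enzyme alone and 12 and 6 with buffer. The buffer-only libraries overlapped the RBFOX2-INSCRIBE libraries in the coding sequence and lay below all libraries with enzyme in the 3' UTR. In OGA-202, the 3' UTR held 12 and 16 edited Cs with the antibody, 2 and 7 with enzyme alone and 2 and 1 with buffer, and its editsC was 1.04 and 1.98 times that of the coding sequence with the antibody. In RBFOX2-INSCRIBE replicate 1 the lowest listed fraction of OGA-202 rose from 0.855% between nt 1001 and 2000 to 2.17% between nt 4001 and 5000. That of OGA-203 fell from 3.33% in the first 1000 nt to 0.621% from nt 3001. The part of coverage in the difference between the forms was not tested.

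Counts were also taken apart for the sequence that the forms share and that which each has alone. OGA-202 and OGA-203 have 2380 nt and 500 Cs in common. In the 934 nt found only in OGA-203, with 177 Cs, 23 and 24 were edited with the antibody, 7 and 17 with enzyme alone, and 5 and 2 with buffer. The 471 Cs found only in OGA-202 held 22 and 21 edited Cs with the antibody, 2 and 11 with enzyme alone, and 4 and 1 with buffer. On both own parts the RBFOX2-INSCRIBE libraries exceeded every control, as over each whole form. How common this is among isoforms was not counted. In the common part OGA-203 had 7 and 8 edited Cs with the antibody, 3 in each enzyme-only library, and 11 and 6 with buffer, so that antibody and buffer overlapped. OGA-202 had 11 and 14 there with the antibody, 5 and 9 with enzyme alone, and 6 in each buffer-only library, again with the antibody above every control. Hardly any position was edited in both forms: within 1 library there was at most 1, and over all libraries 5. So few of the 500 common Cs were edited that independent edits would rarely coincide. A difference in position between the forms was not tested.

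**Figure D4:**
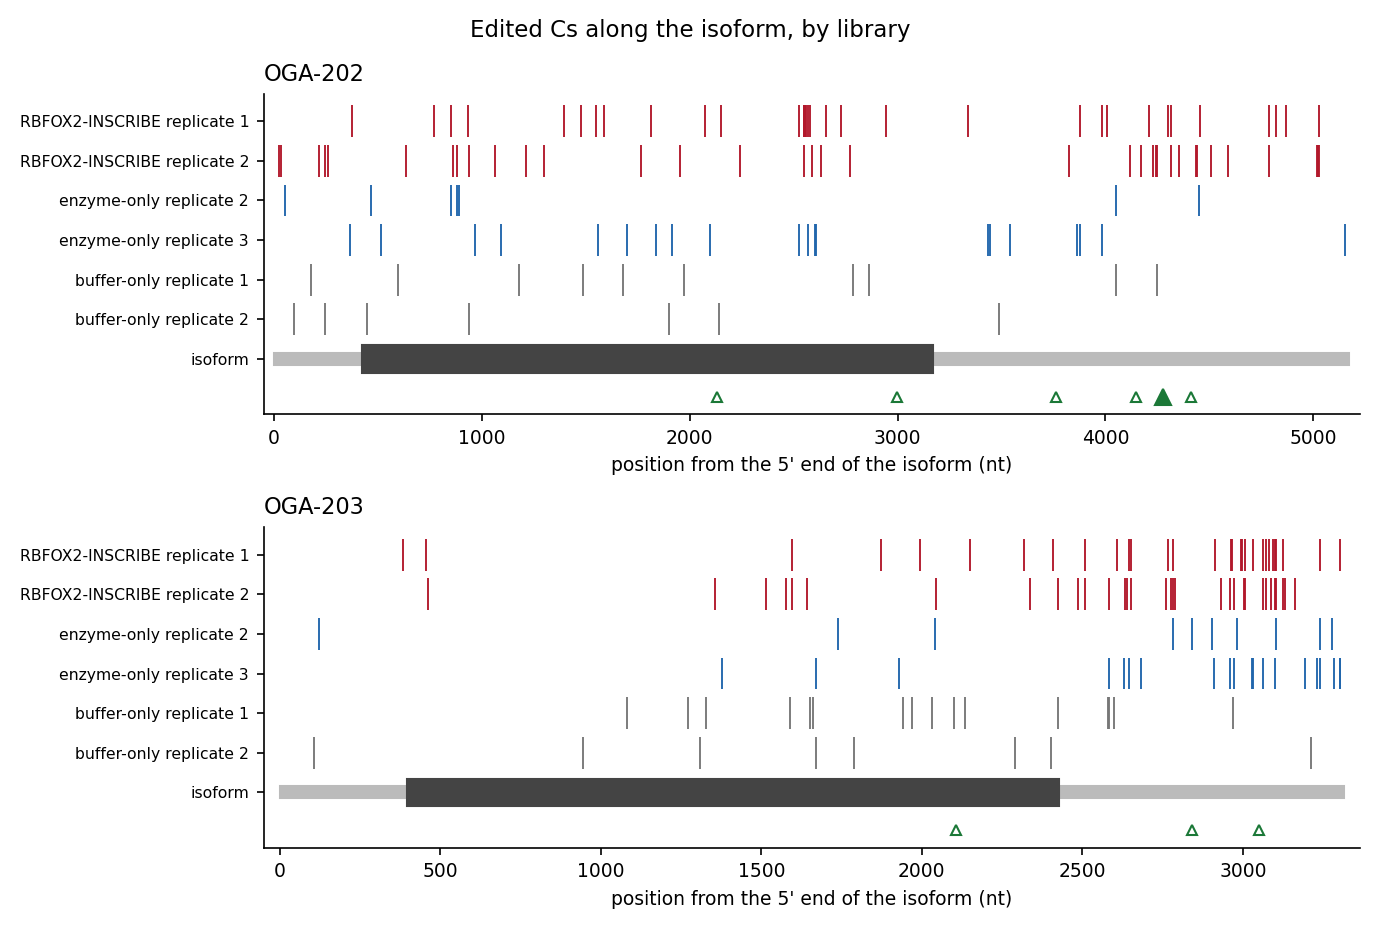
Position of every edited C of OGA-202 and OGA-203 from the 5' end in nt (horizontal axis), drawn as for OGT-202. In OGA-203 the lines of the libraries with enzyme gather in the 3' UTR, where buffer-only has 4 and 1. In OGA-202 they are spread over the isoform.

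The motifs stood in different relation to the edits of the genes. The coding UGCAUG of OGT lies in the first 1000 nt, where no library had an edit, and 21 of the 40 Cs near UGCAUG in OGT lie there. Within 50 nt of the UGCAUG that starts 159 nt after the last coding base there were 2 and 4 with the antibody, 4 and 6 with enzyme alone, and 1 and 3 with buffer. The share of edited Cs near UGCAUG was 0.461 and 0.733 times the share of all Cs there with the antibody, 2.17 and 1.63 times with enzyme alone, and 0.494 and 1.57 times with buffer. The antibody libraries were below the enzyme-only libraries (difference -1.30, exact two-sided permutation p = 0.33). With 2 libraries against 2, no smaller p can be reached.

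In OGA, the UGCAUG of the long 3' UTR, 1109 nt after the last coding base of OGA-202, had 2 and 4 edited Cs within 50 nt in OGA-202 with the antibody, 0 in both enzyme-only libraries, and 1 and 0 with buffer. OGA-205 added 1 edited C, in RBFOX2-INSCRIBE replicate 1. The share of edited Cs near the motif was 2.75 and 3.67 times that of all Cs with the antibody, and 0 in both enzyme-only libraries (difference 3.21, exact two-sided permutation p = 0.33). One buffer-only library, at 2.21, came near the antibody libraries on the strength of 1 edited C. Within 25 nt of the motif the separation was lost: RBFOX2-INSCRIBE replicate 1 had 2 edited Cs and the other 5 libraries had 0 (mean ratios 2.75 and 0, exact two-sided permutation p = 1).

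OGA-203 has no UGCAUG, but the second GCAUG of its 3' UTR, 623 nt after the last coding base, had 8 and 7 edited Cs among the 20 Cs within 50 nt with the antibody, 1 and 4 with enzyme alone and 0 in both buffer-only libraries. The first GCAUG, 414 nt after the last coding base, had 0 with the antibody and 1 in 1 enzyme-only library, although 25 Cs lie near it. These GCAUG were singled out after their values were seen. Over all GCAUG, the ratios were 1.76 and 1.56 for OGA with the antibody, 1.28 and 0.807 with enzyme alone, and 0.751 and 0.765 with buffer. For OGT they were 0.452 and 0.647, 0.851 in each enzyme-only library, and 0.969 and 0.819.

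More edited Cs recurred in OGT than in OGA. Overlap by chance rises with the share of Cs edited, which was 12.2% in OGT and 6.06% in OGA with the antibody. It also differed between the groups, and its part in the recurrence was not tested. OGT had 327 distinct edited Cs, of which 187 were seen in 1 library and none in all 6. Edits found in all samples had been removed by the authors, so that the absence from all 6 is no result. In both RBFOX2-INSCRIBE libraries 52 recurred, 43.3% of the smaller list, against 11 in both enzyme-only libraries, 21.6%, and 8 in both buffer-only libraries, 15.1%. OGA had 213 distinct edited Cs, 181 of them in 1 library. Of these, 13 recurred in both RBFOX2-INSCRIBE libraries, 18.6% of each list, 1 in both enzyme-only libraries and 0 in both buffer-only libraries.

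The recurrent edits seen in no control library numbered 23 in OGT and 10 in OGA. By the choice of these sites, all control values are absent. The 5 with the highest mean fraction in each gene are shown with 14 bases on either side and the edited C in capitals, because they are the positions at which both antibody libraries and no other carried the edit.
OGT-202 coding sequence, chrX:71564695-71564723: acuguaacuuuaauCaguuguauaaaauu
OGT-202 3' UTR, chrX:71575607-71575635: uuacagccauuuuaCauagcacaucauuc
OGT-202 3' UTR, chrX:71574266-71574294: cccuguuuuaguuuCugaacucugacaga
OGT-202 coding sequence, chrX:71567567-71567595: uucaacaguaugcaCaaaacaugggccug
OGT-202 3' UTR, chrX:71575468-71575496: uaauuuauuuuuuaCcgguugauugaaau
OGA-202 and OGA-205 3' UTR, chr10:101785169-101785197: uagucggcaggacuCauuuuuucaucaug
OGA-202 3' UTR, chr10:101784583-101784611: uugcuuucaucacuCuaggaucaugaagu
OGA-202 3' UTR, chr10:101784824-101784852: ugcauuuuugagggCuugagaugaaggga
OGA-203 3' UTR, chr10:101797837-101797865: cguugccuagguuuCuuucaaaaauaggc
OGA-202 and OGA-203 coding sequence, chr10:101798988-101799016: gccuuuguacacugCggaaccagugaccc
All 5 of the OGT sites follow A or U, as do 3 of the 5 OGA sites. The edited fractions were low. At the first OGT site 0.364% and 0.597% of reads were edited, and at the other 4 the mean was between 0.257% and 0.306%. At the first OGA site, the fractions were 3.12% and 5.13%, and at the fifth 1.18% and 0.571%. The first and the fifth OGA site were each seen in a different isoform in each library. Of the 23 OGT sites 1 lay within 50 nt of UGCAUG and 3 near GCAUG, 4.35% and 13.0%, where 3.61% and 9.21% of all Cs did. Of the 10 OGA sites 0 lay near UGCAUG and 3 near GCAUG, 30%, where 13.8% of all Cs did.

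The base before the edited C differed between libraries with and without enzyme. APOBEC1 is known to favour a C that follows A or U. In OGT, 76.7% and 76.8% of edited Cs followed A or U with the antibody, 70.6% and 66.7% with enzyme alone and 51.8% and 56.6% with buffer, beside 51.7% of all its Cs. In OGA the shares were 75.7% and 71.4%, 64.7% and 71.1%, and 31.0% and 31.6%, beside 51.6% of its Cs. Over all isoforms, they were 73.7% and 75.0%, 62.0% and 69.3%, and 42.0% and 42.6%. In both genes all 4 libraries with enzyme were above both buffer-only libraries. The buffer-only edits of OGT were close to the makeup of its Cs, and those of OGA followed G in 37.9% and 36.8%, where 24.7% of its Cs do.

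Listed fractions were lower in OGT than in OGA. The lowest listed fraction in OGA lay between 0.549% and 0.813% over the libraries, above the medians of OGT, so that the medians depend on depth and do not compare how strongly the genes were edited. Median fractions in OGT were 0.190% and 0.146% of reads with the antibody, 0.225% and 0.130% with enzyme alone, and 0.103% and 0.124% with buffer. In OGA, they were 1.19% and 1.10%, 1.64% and 1.12%, and 1.14% and 1.85%. Groups overlapped in OGA, and in OGT the antibody and enzyme-only libraries did. In RBFOX2-INSCRIBE replicates 1 and 2, median fractions within OGT were 0.364% and 0.297% in the coding sequence and 0.112% and 0.0980% in the 3' UTR. In bulk RNA, an edit in every cell on few molecules and an edit in few cells cannot be told apart.

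**Figure D5:**
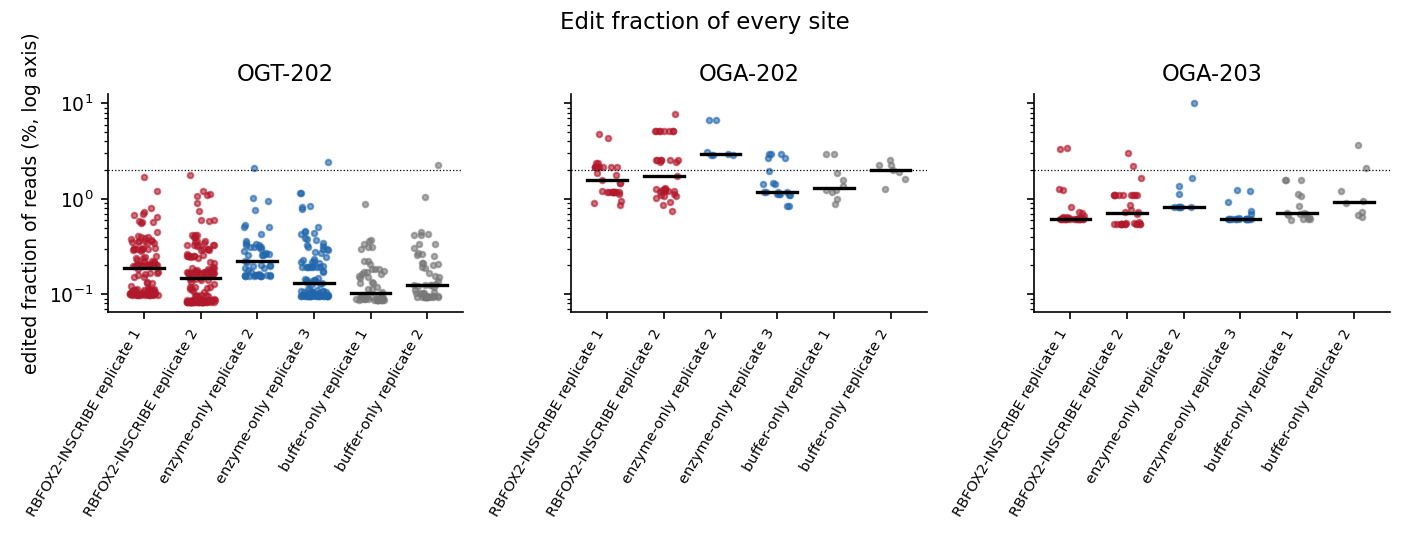
Percentage of the isoform's reads at the position that were edited (vertical log axis), for every edited C of OGT-202, OGA-202 and OGA-203 in the 6 libraries. Points are sites, spread sideways at random, black bars are medians and the dotted line lies at 2%. OGT-202 values lie mostly below those of both OGA forms.

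Counts above a fixed fraction depend on depth in the same way, since fewer edited reads reach it where depth is low. In the 3' UTR of OGA-202 the median fraction was 2.17% and 5.13% with the antibody. Between nt 4001 and 5000 the lowest listed fraction was 2.17% and 2.56%, and in OGA-205 it was 3.12% and 2.38%. Every edit listed there with the antibody thus passed 2%. With enzyme alone the lowest was 6.67% in that stretch of OGA-202 in replicate 2, and 2.08% in OGA-205 in replicate 3. At a fraction of 2% or more, OGA had 23 and 22 edited Cs with the antibody, 8 and 11 with enzyme alone and 6 and 7 with buffer (difference from enzyme-only 13, exact two-sided permutation p = 0.33). OGT had 0 in both antibody libraries, 1 in each enzyme-only library, and 0 and 1 with buffer. Edits at 10% or more were few: OGA-205 had 1 at 50% in buffer-only replicate 1 and 1 at 10% in RBFOX2-INSCRIBE replicate 1, and OGA-203 had 1 at 10% in enzyme-only replicate 2, each seen in that library alone.

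The enzymes that make and salvage the sugar donor were looked at beside OGT and OGA. Of 11 hexosamine pathway genes 8 were listed. Against buffer-only, 5 of the 6 tested were called higher and none lower, and their median log2 difference was 2.23, beside 1.54 over all genes, of which 61.1% were called. GNPNAT1 and GNPDA2 reached the minimum of 5 edited Cs only through the antibody libraries. The count, the median and the log2 differences of both genes from buffer-only are thus a description only. GPI, which feeds the pathway from glycolysis, was too low to test here, with 4 and 2 edited Cs with the antibody, 7 and 8 with enzyme alone, and 7 and 3 with buffer, and its log2 difference from enzyme-only was -1.25 (SE 1.22, limma adjusted p = 0.527). GNPNAT1, which acetylates glucosamine 6-phosphate, had 45 and 53 edited Cs with the antibody and 5 and 4 with buffer, a log2 difference of 3.31 (SE 0.37). UAP1, which makes UDP-GlcNAc, had 36 and 37 against 3 and 8 (2.76, SE 0.47, limma adjusted p = 0.00267). GNPDA2, a deaminase of glucosamine 6-phosphate, had 23 and 29 against 4 and 2 (2.97, SE 0.56). PGM3, which isomerises N-acetylglucosamine phosphate, and GNPDA1, the paralog of GNPDA2, were called at 1.69 and 1.58. GFPT1, the rate-limiting enzyme, was not called at 0.68 (SE 0.65, limma adjusted p = 0.38). Against enzyme-only 0 of 7 tested were called by limma, and 2 had an unadjusted p under 0.05: GNPNAT1 at a log2 difference of 1.86 and GNPDA2 at 3.24. Over all genes, 0.118% were called and 862 of 5088 had such a p. In GNPDA2 1 enzyme-only library had 0 edited Cs and the other 15.

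Proteins that bind or are modified by OGT, and EOGT, which glycosylates secreted proteins instead, formed a second list. Of 11 genes 9 were listed. Against buffer-only, 2 of the 7 tested were called higher and none lower, where 61.1% of all genes were called, and their median log2 difference was 0.79, beside 1.54 over all genes. TET1, a 5-methylcytosine dioxygenase, had 54 and 72 edited Cs with the antibody and 25 and 22 with buffer (1.39, SE 0.39, limma adjusted p = 0.0186). SIN3A, a corepressor scaffold that binds OGT, had 28 and 44 against 15 and 12 (1.36, SE 0.46, limma adjusted p = 0.0358). In TET3, the 23 edited Cs of RBFOX2-INSCRIBE replicate 1 were the only ones of any library. TET3 thus reached the minimum only through that library, and the count and median of this list are a description only. HCFC1, which OGT cleaves, was at 0.57 (SE 0.77, limma adjusted p = 0.53). Against enzyme-only 0 of 8 were called by limma, and none had an unadjusted p under 0.05, beside 6 called and 862 with such a p of 5088 genes. Enzyme-only and buffer-only gave no call in either list, with UAP1 alone at an unadjusted p under 0.05 (0.0306).

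Among the 4801 genes that averaged 5 or more edited Cs over the 6 libraries, the profile over libraries was compared as the Euclidean distance of centred log2 editsC. The genes closest to OGT were TMEM248 at a distance of 0.105, FBXO22 at 0.174 and YWHAG at 0.196. TMEM248 had 64 and 81 edited Cs with the antibody, 25 and 53 with enzyme alone and 30 and 28 with buffer. Closest to OGA were TXNDC9 at 0.146, MTERF2 at 0.247 and TPD52L2 at 0.261. OGT and OGA were at 0.669 from each other, nearer than the median gene was to either, at 1.37 from OGT and 1.51 from OGA. All profiles share the 6 libraries and their totals.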

How the data were processed

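Fractions were deposited by the authors for each isoform and edited position: the share of the isoform's reads at that position with a C-to-U edit. Per the study's methods, the authors made consensus reads (ccs, skera, lima, refine), aligned them to hg38 with pbmm2, assigned unique reads with IsoQuant, and removed dbSNP positions and edits found in all samples. The files carry no read numbers and none were inferred from the fractions, so no interval is given; differences in coverage may move every count. Isoforms were matched to GENCODE release 44; the annotation version for the long reads is not given in the sources used here. Of the listed pairs, between 92.0% and 96.9% lay on the isoform's strand and those in exons (at least 99.76%) were used; 2 intronic OGA-203 positions at 100% in buffer-only replicate 1 were left out. Edited Cs plus a pseudocount of 0.5, divided by Cs, were compared on the log2 scale with limma 3.58.1 (R 4.3.3; trend, robust) for genes or isoforms that averaged 5 or more edited Cs over the libraries of a comparison, which alone were fitted. P-values were adjusted by Benjamini-Hochberg over all genes or isoforms, with a threshold of 0.05. Single values were compared by exact permutation over libraries. The fit was also run on simulated data, and the outcome is not given here. Python 3.11.15 was used for the rest. Named were both genes, their listed isoforms, every UGCAUG, the 5 recurrent sites per gene, the members of both lists and the 3 nearest genes. The members, lists and rules were chosen with earlier results of these data known. Alternatives were other pseudocounts, minima, scalings, windows and fractions, both strands, a joint fit, a block on the replicate number and the omission of each library.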

Additional observations from a re-analysis of the deposited data

How the results depend on the processing

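Of 288 alternative values, 220 were taken as unchanged. Fitted differences had to keep the direction and the side of the threshold, and counts of calls had to stay within 1.5 times. For motif shares and for edited Cs above a minimum fraction, any value that did not reverse was taken as unchanged. OGT and OGT-202 rest on the same edited Cs, so that their values are not separate checks. With the same total per library, log2 differences against buffer-only were -0.19 for OGT, 0.0795 for OGA, -0.20 for OGT-202 and -0.0574 for OGA-203. Of the 3 member isoforms 0 were called, beside 23 of all 5362 isoforms and 15 of 4804 genes. Enzyme-only against buffer-only then gave -0.27 for OGT, -0.43 for OGA, -0.17 for OGA-202, -0.34 for OGA-203 and -0.27 for OGT-202. This scaling removes differences in library total by construction. Leaving out each library in turn, which leaves 1 library in that group, gave, against enzyme-only, 0.40 to 1.39 for OGT, 0.63 to 2.01 for OGA, 0 to 3 member isoforms and 0 to 1690 genes called. Against buffer-only the ranges were 1.132 to 1.46 for OGT, 1.26 to 1.85 for OGA, 0 to 3 member isoforms and 0 to 2318 genes. Enzyme-only against buffer-only ranged from -0.0943 to 0.90 for OGT and OGT-202, -0.45 to 0.92 for OGA, -0.24 to 1.21 for OGA-202, -0.17 to 0.79 for OGA-203 and 0 to 1 gene. Against enzyme-only, limma called 30 genes with a pseudocount of 1, 0 with 0.1, 0 with a minimum mean of 1 edited C, 0 with the same total, 0 at a fraction of at least 0.02, 1 with both strands and 1 in the joint fit of 3 groups, with 228 to 1046 at an unadjusted p under 0.05. Against buffer-only 1866 of 2066 genes were called with a minimum mean of 20, and 641 of 1820, 35.2%, at a fraction of at least 0.02. At that fraction OGA-202, the only member isoform tested, was called, where 598 of 1645 isoforms, 36.4%, were. Fewer genes were tested in both settings. Enzyme-only against buffer-only gave 35 genes with a pseudocount of 0.1, 8 with a minimum mean of 1, 0 with 20, 0 with the same total, 0 at a fraction of at least 0.02 and 64 in the joint fit, with 186 to 857 at an unadjusted p under 0.05. The cause of these changes in counts was not tested. With fractions of at least 0.01 in place of 0.02, OGT had 1 edited C more per antibody library than per enzyme-only library. At a fraction of at least 0.02 OGT had too few edited Cs to give a value.

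The 2 libraries of each group carry replicate numbers in the labels, which no source says mark a shared slide or day. With the replicate block, 28 of 5088 genes were called against enzyme-only and 2890 of 4804, 60.2%, against buffer-only. In enzyme-only against buffer-only 8 of 4209 were called. OGT and OGA stayed on the same side of the threshold (limma adjusted p = 0.449 and 0.328 against enzyme-only, 0.00318 and 0.00663 against buffer-only). The block uses the replicate field of the labels, in which the enzyme-only libraries titled 2 and 3 are 1 and 2. Deviations of libraries with the same number in that field correlated at 0.110, 0.0486 and -0.0248 over 4801 genes. Coverage, for which the files give no read numbers, limits all of these results.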
